A study of Junonia coenia with 38 samples.

Results

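The prepupal peak models led by the forewing were 100 gene models of the buckeye butterfly Junonia coenia. Their transcripts were much higher on average in prepupal wings than at the larval and pupal stages sampled. In the prepupa they were higher in the forewing than in the hindwing. The models were chosen from the measured values, out of 19234 gene models in all. A normalised count is used throughout, which is the read count of a model divided by the median-of-ratios size factor of its library. A model was a member when its mean normalised count over the 6 prepupal libraries was at least 100 and at least 8 times the mean of each of the other 3 stages, and when the prepupal forewing was at least 2 times the prepupal hindwing in each of the replicates 1, 2 and 3. Of the 241 models with such a prepupal peak, these 100 made up 41.5%, and the other 141 were not led by the forewing in all 3 replicates.

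The libraries were poly-A selected RNA from whole forewings and whole hindwings of animals raised at about 27 degrees C. The stages were the larval 5th instar, the prepupa, the pupa 72 h after pupation and the late pupa. The last is a stage that one label places at 6 days and another at day 7. Each wing had 3 libraries per stage, 24 in all, and no genotype, treatment or strain is given in the labels. The labels do not say whether the libraries came from separate animals, so the p-values measure the spread between these samples only. Depth ran from 5795618 to 21284939 counts per library.

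Butterfly wings grow as internal discs in the caterpillar. At the end of larval life a pulse of the moulting hormone ecdysone starts the prepupal period, in which the discs evert, spread and begin to lay down the cuticle of the pupa. In the finished pupal case the forewing lies outermost and covers most of the hindwing, so that the forewing forms much of the visible wing case. The models are known here by contig and first and last position only, since the deposited files do not pair them with gene names. Roles, gene families and sequences are therefore not given, and a wing identity check by a selector gene could not be made.

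In the prepupal forewing these few models held more than 25% of all reads. Their share of the library counts was 31.0%, 29.8% and 25.6% in replicates 1, 2 and 3 of the prepupal forewing, against 9.97%, 8.72% and 5.17% in the prepupal hindwing. The means were 28.8% ± 2.82 in forewings and 7.96% ± 2.49 in hindwings (SD, n = 3 each). In the 5th instar the share was 0.0880% ± 0.0173 in forewings and 0.0957% ± 0.0231 in hindwings. At 72 h it was 0.191% ± 0.197 in forewings and 0.189% ± 0.182 in hindwings, and in the late pupa 0.959% ± 0.146 and 0.788% ± 0.149 in the same wings. The prepupal values chose the members and are a description. The prepupal peak models not led by the forewing held 9.72% ± 0.647 of prepupal forewing counts and 15.6% ± 1.96 of prepupal hindwing counts. Whole wings were sampled, so fewer cells of a type and less RNA per cell cannot be told apart in any of these values.

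**Figure D1:**
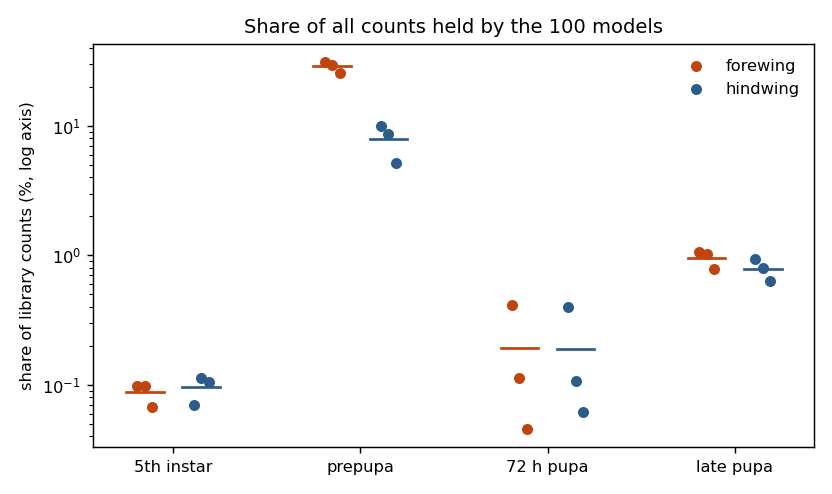
Share of all counts of a library held by the 100 models, in % on a log axis, by stage, with 1 point per library and a bar at the mean of 3 libraries. Prepupal forewings lie between 25.6% and 31.0% and prepupal hindwings between 5.17% and 9.97%, while no library of another stage exceeds 1.06%.

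Within the group the counts were concentrated in few models. The 10 highest held 59.7% of the member counts of prepupal forewings, and 13 of the 20 most abundant models of the prepupal forewing were members, against 4 of the 20 most abundant of the prepupal hindwing. At the other 3 stages 0 of the 20 most abundant models were members in either wing. Mean normalised counts ran from 153.8 to 856329 in prepupal forewings, with a median of 2862, and from 17.6 to 183673 in prepupal hindwings, with a median of 371.2. By forewing mean, 27 models lay under 1000, 35 from there to under 10000, 19 from there to under 100000, and 19 above that. Counts were not divided by transcript length, which the files do not give, so an order of models by count is not an order by number of transcripts.

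**Figure D2:**
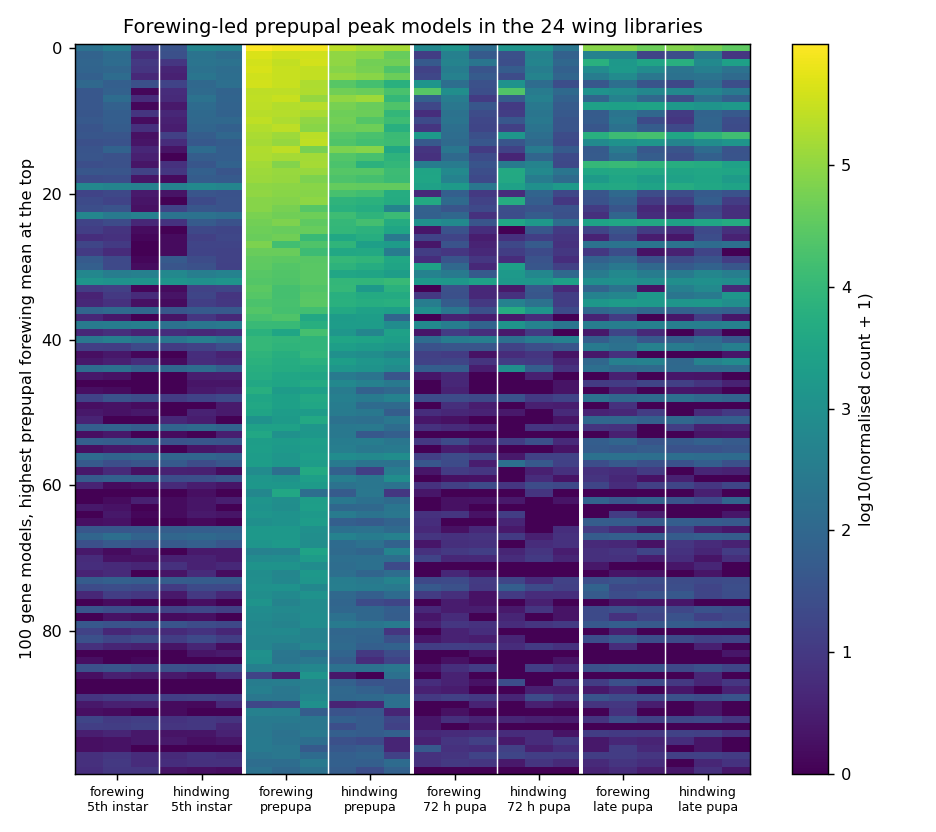
Normalised counts of the 100 models, as log10 of the value plus 1, in the 24 libraries, with 3 columns per wing and stage (replicates 1, 2 and 3 from left to right). The prepupal columns are the brightest in every row on average, and the prepupal hindwing columns are darker than the forewing columns, as the rule requires.

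The most abundant member was 000032F:2595231-2602533. Its normalised count was 989430, 796499 and 783060 in prepupal forewings, against 239945, 159171 and 151903 in prepupal hindwings. In late pupae it was 79150, 79071 and 44905 in forewings and 73969, 59238 and 31819 in hindwings. The wings thus differed by a ratio of 4.66 in the prepupa, and in the late pupa their values overlapped, and the late stage mean was 8.47 times lower than the prepupal one.

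A pair of neighbours on contig 000006F followed. The model 000006F:3269258-3272610 stood at 457292, 345439 and 356848 in prepupal forewings, against 100768, 82903 and 39948 in hindwings. The model 000006F:3277829-3279715, on the same stretch of 10458 bases, stood at 428700, 315756 and 285476 in forewings, against 79522, 59781 and 22445 in hindwings. Replicate 1 was highest and replicate 3 lowest in the hindwing for both. Outside the prepupa the first reached at most 455.5 in any forewing library and 434.9 in any hindwing library, so that it stood 1140 times higher in the prepupa than at its next stage.

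The other leading models by count were 000157F:277235-278695, 000139F:996643-998111 and 000183F:313077-315730. The first averaged 354469 ± 61964 in prepupal forewings and 67680 ± 28760.5 in prepupal hindwings (SD, n = 3 each). The second averaged 312787 ± 43185 in forewings and 80197 ± 33139 in hindwings. The third had 374937, 305072 and 185045 in forewings, against 27309, 16839 and 6507 in hindwings, a ratio of 17.1 that was the widest among the 6 most abundant members. In all 6 every prepupal forewing library stood above every prepupal hindwing library, while the rule asks this only within each replicate number.

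The wing ratio varied widely among members. The ratio of forewing to hindwing means in the prepupa ran from 2.13 to 22.6, with a median of 6.47 and quartiles of 4.66 and 10.2. The largest belonged to 000057F:536747-539676, with 5056, 3528 and 3216 in prepupal forewings, against 288.3, 197.9 and 36.6 in hindwings. The next were 000100F:241422-251587 at 21.1, 000051F:232595-233793 at 20.7 and 000051F:215186-216153 at 19.5. At the low end 000009F:1685162-1690523 had 140.0, 137.4 and 265.3 in forewings, against 67.2, 63.1 and 124.5 in hindwings. Its hindwing replicate 3 came near the lower forewing libraries. The models 000009F:961271-967926, 000009F:989529-995894 and 000016F:237200-244585 all had ratios of 2.40. The last of these was also the steadiest of the abundant ones named, at 93748, 87669 and 85724 in forewings, against 38600, 36133 and 36476 in hindwings.

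The lead of the forewing was not the same in each replicate. The median ratio over the 100 models was 5.42 in replicate 1, 6.09 in replicate 2 and 10.8 in replicate 3, and replicate 3 had the highest ratio in 78 models, replicate 2 in 15 and replicate 1 in 7. The member share of hindwing counts was lowest in replicate 3 as well. In most models the libraries of a number moved together, since the same replicate was the highest in both wings for 67 of the 100. Among the 3 prepupal forewing libraries the highest value was a median of 1.71 times the lowest, more than 3 times in 20 models and more than 10 times in 4. The 141 peak models not led by the forewing showed a like pattern. Replicate 3 had the highest ratio in 89 of them, and the same replicate was the highest in both wings for 103. Their forewing spread was more than 3 times in 35 and more than 10 times in 16. The rule used these prepupal values, so they are a description.

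The 4 members with a forewing spread of more than 10 times had most of their prepupal counts in a single replicate number, in both wings. The model 000000F:1405770-1406963 had 16.1, 2.45 and 1236 in prepupal forewings, against 1.49, 0 and 161.2 in hindwings. The model 000086F:473477-478206 had 18.4, 22.1 and 1005 in forewings, against 2.99, 3.88 and 165.3 in hindwings. Both were high in replicate 3 of each wing and low in the others. The model 000075F:315204-317863, whose span overlaps that of another model, had 771.1, 157.0 and 4442 in forewings, against 67.2, 11.6 and 338.0 in hindwings. By contrast 000051F:245050-246285 was high in replicate 2, at 603.6, 3843 and 142.1 in forewings, against 50.8, 237.7 and 8.37 in hindwings. These 4 were named after their values were seen.

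The prepupal peak itself was sharp in some models and modest in others. The prepupal stage mean was 8.40 to 2130 times the next highest stage mean, with a median of 27.5. The next highest stage was the late pupa in 49 models, 72 h in 33 and the 5th instar in 18. Within the forewing alone the prepupa was at least 8 times each other stage in all 100 models, and within the hindwing alone in 57. Among the peak models not led by the forewing these counts were 122 and 130 of 141. The forewing lead in the rule raises the forewing count and lowers the hindwing count among members. These counts are therefore a description.

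The sharpest peaks were 000051F:232595-233793, at 5892, 1942 and 2372 in prepupal forewings and 316.6, 70.8 and 104.6 in hindwings, and 000001F:4793953-4795031, at 42783, 48751 and 10910 in forewings and 3777, 5462 and 271.0 in hindwings. The first had at most 2.70 in any library of the other stages. The least sharp were 000010F:2724235-2738084, 000010F:2806225-2814159, 000032F:2595231-2602533 and 000107F:1538373-1539014, whose next stage reached 11.6% to 11.9% of the prepupal mean.

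Members just inside and just outside the thresholds had like values. The lowest prepupal mean of a member was 102.9 (000146F:97667-105784), and the nearest model outside stood at 89.3 (000185F:251953-252717). The smallest fold over another stage was 8.40 (000010F:2724235-2738084), and the nearest outside was 7.80 (000010F:2710587-2716286). The smallest wing ratio in a replicate was 2.04 (000107F:1538373-1539014), and the nearest outside was 1.97 (000482F:220662-256115). Membership also rested on the scaling. Size factors were 0.436, 0.815 and 0.584 in prepupal forewings, against 0.670, 1.03 and 0.956 in prepupal hindwings, while total counts were alike, and dividing by the library total alone left 65 members.

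Many of these models lay side by side in the genome. Runs were formed of members with at most 50 kb between neighbours on a contig, and 55 of the 100 members lay in 14 runs. Of the 141 peak models not led by the forewing 48 (34.0%) lay in 20 runs, the longest of 4. The members were spread over 45 of 811 contigs. Their median span was 4522.5 bases, against 7728 for the peak models not led by the forewing and 5258 for all models. The spans of 10 members (10%) overlapped that of another model, against 19.6% of all models. Some of these overlaps were between members. The member 000001F:4686540-4691478 lay within 000001F:4684060-4702936, and 000139F:1004037-1004619 lay within 000139F:1001198-1025653. How reads in such overlaps were assigned is not stated, and whether neighbours are parts of a single transcript is not recorded.

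The longest run held 15 members among 27 models, from 4569874 to 4799918 on contig 000001F, a stretch of 230 kb. The run took 5.52%, 6.77% and 2.87% of prepupal forewing counts, against 2.08%, 2.59% and 0.388% of prepupal hindwing counts. Replicate 3 was thus the lowest in both wings, and in 10 of the 15 models it was the lowest forewing library. At the centre of the run 000001F:4661880-4663136 had 230700, 208642 and 158372 in forewings, against 47315, 44225 and 9273 in hindwings. Close by, 000001F:4684060-4702936, which overlaps another model, had 259894, 303779 and 111756 in forewings, against 97851, 132471 and 9704 in hindwings. Here hindwing replicate 2 lay above forewing replicate 3, while each forewing library stood above the hindwing library of its number. The first and last models of the run were lower, with 000001F:4569874-4570826 at 289.2, 231.8 and 47.9 in forewings and 43.3, 57.2 and 3.14 in hindwings, and 000001F:4797987-4799918 at 748.2, 564.2 and 823.3 in forewings and 174.8, 98.0 and 58.6 in hindwings. Outside the prepupa the run held 0.00417% of forewing counts and 0.00663% of hindwing counts in the 5th instar, and no more than 0.0114% at the later stages.

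A second run on contig 000051F, from 207007 to 270755, held 8 members and no other model. It took 1.38% of prepupal forewing counts and 0.278% of prepupal hindwing counts on average, with wing ratios from 6.09 to 20.7. Replicate 1 was the highest forewing library in 6 of the 8, and 2 of the 4 largest wing ratios belonged to it. Another run, on contig 000139F from 996643 to 1051800, held 6 members among 7 models, of which 4 overlap, and took 4.20% of prepupal forewing counts and 1.19% of hindwing counts. Smaller runs without any other model between them held 4 members on contig 000053F, 3 on 000009F and 3 on 000190F. The pair 000019F:1993383-1994189 and 000019F:2004960-2006024 was highest in replicate 3, in which it took 2.53% of forewing and 0.217% of hindwing counts, and was named after its values were seen.

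Outside the prepupa the wings were compared with tests, since the rule did not use those contrasts. Of the 100 members 99 had enough counts to be tested, and 000000F:1405770-1406963 did not. The filter took all 24 libraries together, so a member could pass it by its prepupal counts alone. Fewer than 10 counts over the 3 libraries of a group were found for 25 members in larval forewings and 23 in larval hindwings. At 72 h these were 30 and 40 members, and in late pupae 22 and 28. For such members the test could hardly call a wing difference. In edgeR's quasi-likelihood test the wings were not paired, and the adjustment was Benjamini-Hochberg over 13282 models. It called 0 of 99 members as different between forewing and hindwing in the 5th instar, at 72 h or in the late pupa. The same fit called 0.0376%, 0.00753% and 0.0301% of all models at these stages. At an unadjusted p below 0.05 there were 4, 5 and 1 members, and 2.70%, 3.85% and 1.91% of all models. DESeq2's Wald test called 1, 0 and 0 members, without a share of all models to set beside them. The median log2 fold change, forewing over hindwing, was −0.23 in the 5th instar, 0.14 at 72 h and 0.36 in the late pupa, against 0.00, 0.03 and 0.00 over all models. In the late pupa the peak models not led by the forewing had a median of 0.37. In the prepupa, where the rule fixed the direction, the median over members was 2.63.

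**Figure D3:**
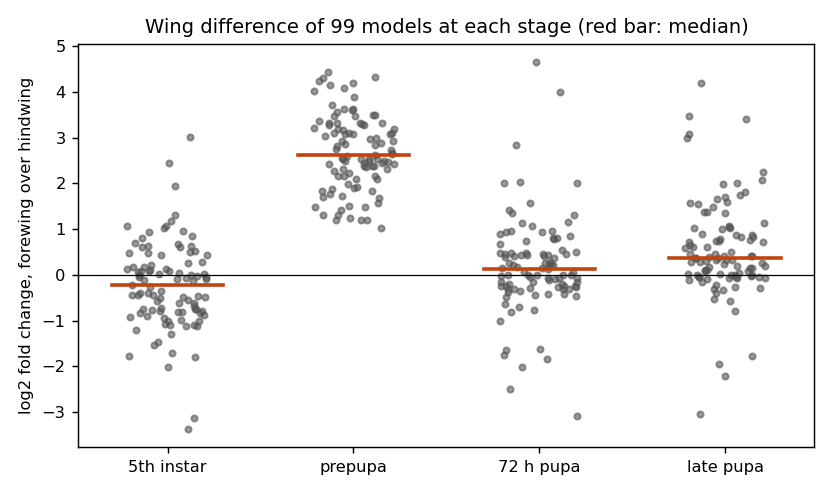
Log2 fold change in the unpaired fit, forewing over hindwing, of the 99 tested models at each stage, with 1 point per model and a bar at the median. The prepupal points lie above 0 by the rule, with a median of 2.63, and the points of the other stages lie on both sides of 0 with medians between −0.23 and 0.36.

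The forewing stood above the hindwing in all 3 same-numbered pairs of late pupae in 38 of the 100 members, against 15.8% of all models with a mean count of 10 or more. It stood below in 7, against 18.5% of all models. The share was like that of the peak models not led by the forewing, 38.3%. At 72 h 13 members were above in all pairs and 18 below, against 15.5% and 15.2% of all models. In the 5th instar 17 were above and 8 below, against 24.6% and 21.6%.

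Wings of a stage with the same replicate number varied together, and a fit with those pairs as a block called some members. In the 5th instar it called 2, both higher in the forewing, where it called 0.986% of all models, 0.489% as higher in the forewing. The model 000146F:97667-105784 had 5.05, 8.30 and 7.79 in larval forewings, against 1.03, 0.787 and 0.566 in larval hindwings, a log2 fold change of 3.02 ± 0.44 (SE; paired edgeR adjusted p = 0.0105). It was one of the weakest members in the prepupa. The model 000250F:367396-368616 had 51.2, 66.4 and 64.9 in larval forewings, against 25.2, 26.8 and 36.2 in larval hindwings, a log2 fold change of 1.06 ± 0.20 (paired edgeR adjusted p = 0.0295). The groups did not overlap in either model. The second call ended when any pair was left out, with adjusted p from 0.121 to 0.175, and the first when pair 2 or pair 3 was left out, with adjusted p of 0.0872 and 0.123. In the late pupa the paired fit called 0 members and 0.459% of all models.

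At 72 h the paired fit called 5 members, all of them lower in the forewing, the reverse of their prepupal lead. It called 2.70% of all models at this stage, 1.54% as lower in the forewing. These 5 were named after their values were seen. The model 000010F:2806225-2814159 had 905.5, 224.8 and 27.9 in forewings at 72 h, against 5172, 1370 and 20.6 in hindwings. Its log2 fold change was −2.03 ± 0.35 (SE; paired edgeR adjusted p = 0.0101), although the pair numbered 3 was low in both wings and did not show the difference. The model 000010F:2724235-2738084 on the same contig had 1025, 688.8 and 36.8 in forewings, against 3615, 1742 and 137.2 in hindwings (log2 −1.63 ± 0.37, paired edgeR adjusted p = 0.0376).

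The other 3 of these models lay on contigs 000091F and 000054F. The neighbours 000091F:1334754-1342351 and 000091F:1325357-1329266 behaved alike. The first had 447.7, 284.1 and 48.7 in forewings at 72 h, against 1774, 600.7 and 108.3 in hindwings (log2 −1.42 ± 0.21, paired edgeR adjusted p = 0.00359). The second had 41.6, 22.5 and 1.99 in forewings, against 165.3, 45.7 and 13.4 in hindwings (log2 −1.70 ± 0.24, paired edgeR adjusted p = 0.00325). The model 000054F:27650-30889 had 707.5, 350.7 and 84.6 in forewings, against 1297, 459.0 and 212.5 in hindwings (log2 −0.82 ± 0.15, paired edgeR adjusted p = 0.0133). In each of these 5 models replicate 1 was the highest and replicate 3 the lowest of both wings at 72 h, and the 2 groups overlapped while the pairs did not cross, apart from pair 3 of 000010F:2806225-2814159. Without pair 1 the paired fit called 1 member, 000091F:1334754-1342351, without pair 2 it called 4, and without pair 3 it called 6.

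The change of the wing difference between stages was tested as well. In the paired fit it differed between 72 h and the 5th instar in 3 members, all towards the hindwing at 72 h, where 0.858% of all models were called and 0.399% in that direction. Between the late pupa and 72 h it differed in 2 members, both back towards the forewing, where 0.708% were called and 0.459% in that direction. All were among the 5 models above. The late count was 0 without 72 h pair 1 and 0 without any one of the 3 late pairs, and 4 and 3 without 72 h pair 2 or 3. The count between 72 h and the 5th instar was 2, 4 and 5 without 72 h pair 1, 2 or 3, and 3, 2 and 2 without larval pair 1, 2 or 3. The unpaired edgeR fit called 0 members in either comparison, with 3 and 2 at an unadjusted p below 0.05, against 2.73% and 2.19% of all models. DESeq2's Wald test called 0 members in both.

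**Figure D4:**
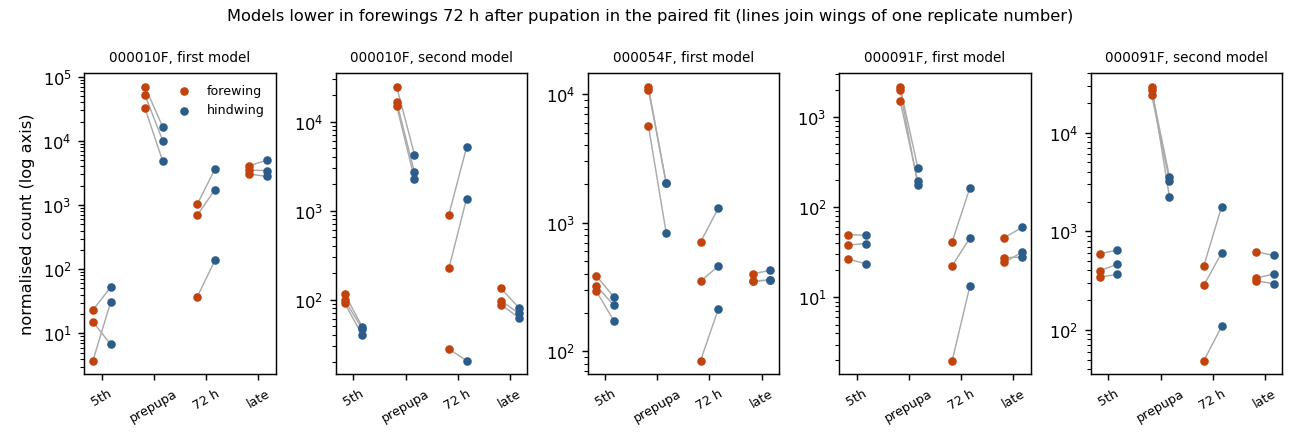
Normalised counts on log axes of the 5 models called lower in forewings at 72 h in the paired fit, by stage, with lines joining forewing and hindwing of a replicate number. From left to right the panels are 000010F:2724235-2738084, 000010F:2806225-2814159, 000054F:27650-30889, 000091F:1325357-1329266 and 000091F:1334754-1342351, and the lines slope down in the prepupa and, but for 1 of 15, up at 72 h.

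The next comparison asks what the members did on either side of the prepupa, with the prepupal values left out. At 72 h against the 5th instar, 23 of 99 members were higher and 17 lower in forewings in edgeR's test, while 25.6% of all models were higher and 29.1% lower. In hindwings 14 were higher and 17 lower, against 25.4% and 28.6% of all models. Fewer than 10 counts over 3 libraries were held by 25 members in larval forewings and 30 in forewings at 72 h. In hindwings these were 23 and 40 members. Members could pass the filter by their prepupal counts alone, and a member low at both stages could hardly be called. The shares of members and of all models are therefore not a like comparison. The count of higher members varied with the libraries fitted. In forewings it was 13 without 72 h replicate 1, 15 without 72 h replicate 2 and 14 without larval replicate 2 or 3, and 13 when only the groups compared were fitted, and the count of lower members was 17 in each of these. In hindwings it was 9 without 72 h replicate 1 and 9 when only the groups compared were fitted. With median-of-ratios scaling in place of TMM the hindwing split was 19 higher and 15 lower, since that scaling raises every log2 fold change of this comparison by 0.12 in forewings and 0.14 in hindwings. In both wings 13 members were called higher, which is 56.5% of the forewing list and 92.9% of the hindwing list, and 16 were called lower. Of all models 22.6% were higher in both wings, which is 88.4% of the forewing list and 89.2% of the hindwing list, and 25.4% were lower in both. These comparisons share no libraries between wings, but wings of a stage with the same replicate number varied together. The calls of the wings are therefore not independent. The median log2 fold change was 0.95 in forewings and 0.40 in hindwings over members, against −0.08 and −0.12 over all models.

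The levels reached at 72 h were set against the prepupa. Of the 23 called higher in forewings, 12 stood below 1% of their prepupal forewing mean. The 14 called higher in hindwings stood at 2.09% to 71.0% of their prepupal hindwing mean, with a median of 12.6%. The rule set the prepupal hindwing mean below the forewing one, so these percentages cannot be compared between wings.

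By fitted size the largest increase was that of 000105F:693984-695585. In forewings it had 27256, 908.2 and 25.9 at 72 h, against 42.6, 71.5 and 0.289 in the 5th instar, which is 7.83 ± 2.28 on the log2 scale (SE; edgeR adjusted p = 0.00696). In hindwings it had 23257, 312.4 and 113.5 at 72 h, against 4.64, 117.3 and 80.4 in the 5th instar (log2 6.73 ± 2.16, edgeR adjusted p = 0.0134). Replicate 1 at 72 h was far above the rest in both wings, and the stages overlapped in the other libraries. Without that library the log2 fold change was 3.52 in forewings (edgeR adjusted p = 0.102) and 1.47 in hindwings (edgeR adjusted p = 0.469). Leaving out larval replicate 2 gave 8.75 in forewings and 7.41 in hindwings, and in forewings larval replicate 3 gave 7.23 and 72 h replicate 3 gave 8.41, all still called. Both calls ended when only the groups compared were fitted, at log2 values of 7.97 in forewings and 6.84 in hindwings (edgeR adjusted p of 0.0643 and 0.0648). DESeq2's Wald test gave no adjusted p for either. With the replicate number as a block the hindwing value was 4.83 (edgeR adjusted p = 0.0636).

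The same library carried 000051F:207007-213340, first of the run on its contig. It had 4315, 118.7 and 13.9 in forewings at 72 h, against 21.6, 15.2 and 1.15 in the 5th instar (log2 6.80 ± 2.17, edgeR adjusted p = 0.0125). Without 72 h replicate 1 the value was 2.35 (edgeR adjusted p = 0.272), and without larval replicate 3 or 72 h replicate 3 it was 6.22 or 7.40, both called. When only the groups compared were fitted it was 6.95 (edgeR adjusted p = 0.0530). In late forewings it had 31.6, 68.0 and 9.86, and the log2 fold change against 72 h was −5.37 ± 2.03 (SE; edgeR adjusted p = 0.0331), or −0.91 without 72 h replicate 1 (edgeR adjusted p = 0.686). That call also ended without late replicate 1, 2 or 3, at −5.28, −6.19 and −4.91 (edgeR adjusted p of 0.0908, 0.0597 and 0.103). In hindwings the late pupae had 11.5, 62.0 and 10.7, against 5197, 62.5 and 8.25 at 72 h, a log2 fold change of −5.97 ± 2.09 (edgeR adjusted p = 0.0224). It was −0.19 without 72 h replicate 1 (edgeR adjusted p = 0.944), −5.60 and −5.58 without late replicates 1 and 3 (edgeR adjusted p of 0.0755 and 0.0761), and −7.31 without late replicate 2. Both late calls also ended when only the groups compared were fitted (edgeR adjusted p of 0.0807 in forewings and 0.0811 in hindwings) and with the replicate number as a block (edgeR adjusted p of 0.0998 and 0.0864).

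In hindwings the low-count model 000051F:500546-501016 had 24 counts over the 3 libraries at 72 h and 0 in the 5th instar, at least 22.4-fold higher when the group at 0 is set to 3 counts (edgeR adjusted p = 0.000243). Without 72 h replicate 1 its fitted log2 value was 5.39 in place of 6.71, and these fitted values depend on the prior count.

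Of the 17 members lower at 72 h than in the 5th instar in forewings, 1 had a prepupal mean of 10000 or more, and 15 stood at 1% or more of their prepupal forewing mean in the larva. The model 000250F:367396-368616 had 2 counts in forewings at 72 h, against 440 in the 5th instar, 99.9 times lower with 27.5 to 828 as the 95% counting interval (edgeR adjusted p = 2.10e-06). The model 000146F:97667-105784 had 0 counts at 72 h, against 52, at least 7.87-fold lower (edgeR adjusted p = 7.01e-05). Both had been higher in larval forewings than in larval hindwings in the paired fit. In hindwings 000074F:1722272-1730502 had 0 counts at 72 h, against 41 in the 5th instar, at least 4.88-fold lower (edgeR adjusted p = 0.000843). The model 000083F:559720-562750 had 0 counts, against 31, at least 3.69-fold lower (edgeR adjusted p = 0.0422), and that call ended without any one of the 6 libraries, at edgeR adjusted p from 0.0503 to 0.121, and with median-of-ratios scaling, at edgeR adjusted p = 0.0515.

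Most members called between the late pupa and 72 h were higher in late pupae. In forewings 33 were higher and 4 lower in late pupae, against 25.8% and 26.4% of all models. In hindwings 30 were higher and 5 lower, against 25.9% and 26.5%. The limit of low counts given for the comparison with the 5th instar holds for these shares too. Fewer than 10 counts were held by 22 members in late forewings and 28 in late hindwings. The hindwing split was 22 higher and 10 lower without 72 h replicate 3, and 3 were lower without late replicate 1 or 3. DESeq2's Wald test called 8 lower in hindwings, and fitting only the groups compared gave 2 lower in forewings. Without both 72 h libraries numbered 3 the split was 30 higher and 9 lower in forewings and 26 higher and 11 lower in hindwings. Both wings shared 29 of the higher calls, 87.9% of the forewing list and 96.7% of the hindwing list, and 4 lower ones. Of all models 22.6% were higher in both wings, which is 87.6% of the forewing list and 87.2% of the hindwing list, and 23.0% were lower in both. Among the peak models not led by the forewing, 56 of 141 were higher in forewings and 46 in hindwings. The late level of the 33 members called higher in forewings was a median of 3.99% of their prepupal forewing mean, and that of the 30 in hindwings 19.4% of their prepupal hindwing mean. As a normalised count the median late level was 64.2 in forewings and 58.0 in hindwings. The rule set the prepupal hindwing mean below the forewing one, so the percentages cannot be compared between wings. The median log2 fold change was 0.78 in forewings and 0.36 in hindwings over members, against −0.03 and −0.01 over all models.

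The largest late increase was that of 000503F:112382-133358. It had 100.6, 93.5 and 63.1 in late forewings, against 1.26, 0.899 and 0 at 72 h, and 102.0, 65.4 and 62.8 in late hindwings, against 0, 0 and 1.03 at 72 h. With 211 counts against 2 the forewing ratio was 119, with a 95% counting interval of 32.6 to 992 (edgeR adjusted p = 6.86e-06). With 184 counts against 1 the hindwing ratio was 154, with an interval of 27.3 to 6123 (edgeR adjusted p = 1.89e-05). Without hindwing 72 h replicate 3 the 72 h hindwings held 0 counts, and the fitted log2 value of 9.40 in place of 6.99 then depends on the prior count. The late values of the wings overlapped, although the prepupal forewings, at 1161, 1872 and 4057, stood far above the hindwings, at 171.8, 153.3 and 235.5.

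The most abundant member, 000032F:2595231-2602533, rose as well. Its late forewings, given above, stood against 610.4, 1194 and 140.3 at 72 h, which is 6.68 ± 1.18 on the log2 scale (SE; edgeR adjusted p = 0.000111), or 7.48 without 72 h replicate 2. In hindwings 000011F:2342448-2348151, which overlaps another model, had 104.5, 490.2 and 790.7 in late pupae, against 11.0, 9.61 and 3.09 at 72 h (log2 5.96 ± 0.83, edgeR adjusted p = 8.55e-06), or 5.32 without late replicate 3. Every late library of both models stood above every 72 h library of its wing.

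Few members fell after 72 h. Besides 000051F:207007-213340, 000044F:268362-270774 had 0, 4.85 and 0 in late forewings, against 11.3, 11.7 and 10.9 at 72 h (log2 −2.77 ± 0.80, edgeR adjusted p = 0.00711). The value was −6.69 without late replicate 2, which held all its late counts, and −2.11 without late replicate 3. When only the groups compared were fitted the call ended (edgeR adjusted p = 0.0744). In hindwings 000010F:2806225-2814159 had 70.1, 81.5 and 62.8 in late pupae, against 5172, 1370 and 20.6 at 72 h (log2 −4.94 ± 1.19, edgeR adjusted p = 0.00191), or −3.24 without 72 h replicate 1. Over the stage comparisons of both wings, 38 of the 99 members passed the test in none, against 18.9% of all models. Members could pass the filter by their prepupal counts alone, and the rule chose them to be low at the stages compared here. Those with fewer than 10 counts in a group ran from 22 in late forewings to 40 in hindwings at 72 h. A member low at both stages of a comparison could hardly be called. How much of the gap between these shares comes from low counts was not tested.

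The 72 h libraries differed among themselves in their member share. It was 0.415%, 0.112% and 0.0459% in forewing replicates 1, 2 and 3 at 72 h, and 0.398%, 0.107% and 0.0622% in the hindwing replicates. Replicate 1 was thus the highest in both wings, with 12 of the 37 members above a prepupal mean of 10000 at 1% or more of that mean in either wing, against 1 and 2 in forewing and hindwing replicate 3.

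Low levels of the most abundant members outside the prepupa also followed the library. For the 37 members with a prepupal mean of 10000 or more, the level in each library was taken as a percentage of the prepupal mean. In the 5th instar the median over these models was 0.0427%, 0.0538% and 0.00292% in forewing replicates 1, 2 and 3, and 0.00362%, 0.0943% and 0.0794% in hindwing replicates 1, 2 and 3. Forewing replicate 3 and hindwing replicate 1 were thus more than 10 times lower than the other larval libraries. In the hindwing replicates 2 and 3, 31 and 32 of the 37 models lay within a factor of 2 of that median. In the late pupa the medians were higher, 0.545%, 0.737% and 0.385% in forewings and 0.295%, 0.324% and 0.0888% in hindwings, and 3 to 10 of the 37 lay within that factor. At 72 h the medians were 0.0637%, 0.204% and 0.0265% in forewing replicates 1, 2 and 3, and 0.0618%, 0.235% and 0.0431% in the hindwing replicates. Within that factor lay 6, 24 and 26 of the 37 models in these forewings, and 9, 23 and 25 in these hindwings. Whether the larval and 72 h counts are transcripts of those wings or prepupal RNA read in other libraries was not tested. It bears on both sides of the comparisons of 72 h with the 5th instar for these models. It also bears on the 72 h side of their late comparisons.

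**Figure D5:**
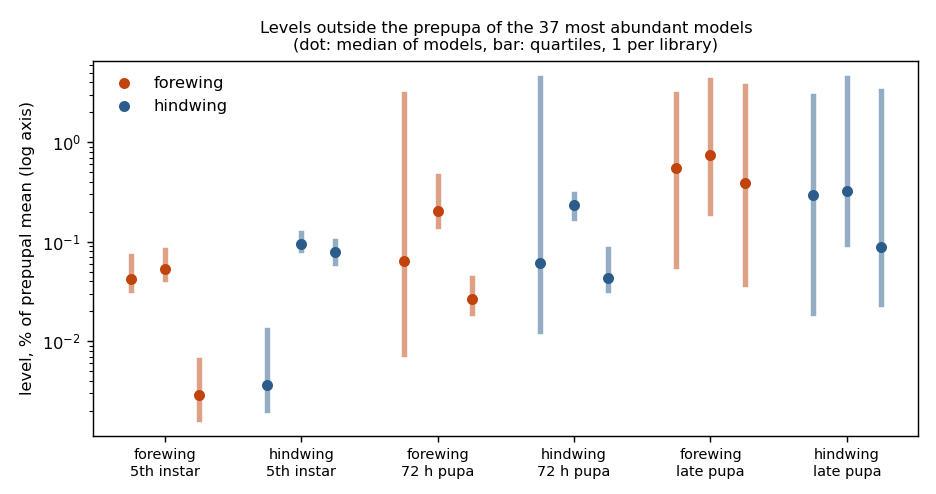
Level of the 37 members with a prepupal mean of 10000 or more, as % of that mean on a log axis, in each library of the other 3 stages (replicates 1, 2 and 3 from left to right), with a dot at the median of the models and a bar over the quartiles. Larval medians are 0.00292% and 0.00362% in 2 libraries and 0.0427% to 0.0943% in the other 4, and the late pupal bars are wide.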

How the data were processed

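Whole forewings and hindwings were sequenced at 4 stages, 3 libraries per group. The authors deposited a table of read counts, whole numbers per gene model without normalization, which was the only measurement used. TopHat, bedtools and DESeq2 are listed in the submitters' processing notes without version or role. For the genome build, the annotation and the use of strand, the value is not given in the sources used here. Columns headed d3 were taken as the 72 h libraries, the only stage left for them. The 14 libraries made for annotation were not analysed here, and the labels of 4 of them contradict each other. Every count column of the table was used. A stretch of contig 000019F with 20 models is not reported here.

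The members and lists were chosen with earlier results of these data known. Size factors were DESeq's median of ratios over the 24 libraries. For tests, models passing filterByExpr (minimum count 10, minimum total 15) were fitted with edgeR 4.0.16 in R 4.3.3 (TMM factors, quasi-likelihood, a mean for each of 8 groups, two-sided), with Benjamini-Hochberg adjustment over 13282 models and a threshold of 0.05. The common biological coefficient of variation was 38.7%. SE is the absolute log2 fold change over the square root of F. No test is reported for contrasts the rule used. Alternatives were DESeq2 1.42.0, its size factors, no filter, only the groups compared, models without overlap, each library left out, and a replicate block. Shares of all models called are given for the main fit and for the replicate block of the wing comparisons. Member counts of the other alternatives have no such share beside them.

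Replicate numbers come from the labels. Deviations of log2 values from group means correlated between the wings of a stage at r from 0.514 to 0.750 for the 12 pairs of the same number, and from −0.569 to −0.128 for different numbers. The main fit had no pairs, and the numbers were taken as pairs in a further fit of the wing comparisons. Across stages, same numbers reached from −0.117 to 0.0981.

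Models named were, by rank among members, the 6 highest in prepupal forewings, the 4 largest and 4 smallest wing ratios, the 4 least and 2 most sharply peaked, the 2 called members with the largest rise and the 2 with the largest fall in each tested contrast, those of the longest run, and those at each threshold. Others are marked as named after their values were seen. Lists of cuticle, hormone and cell type genes need gene names and were not used here. A group of libraries with 0 counts was set to 3 counts in all, which makes the fold a bound. With 1 to 3 counts, it is a ratio with an exact 95% interval. Bounds and intervals cover counting error only.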

Additional observations from a re-analysis of the deposited data

Results flagged for a closer look

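The wing difference of 4 members changed between stages in the paired fit, as tested by the interaction of wing and stage. The 72 h wing difference minus the 5th instar one was −3.21 ± 0.48 (log2, SE; paired edgeR adjusted p = 0.0101) for 000010F:2806225-2814159. It was −1.43 ± 0.21 (paired edgeR adjusted p = 0.00841) for 000054F:27650-30889 and −1.75 ± 0.30 (paired edgeR adjusted p = 0.0201) for 000091F:1325357-1329266. The late pupal difference minus the 72 h one was 2.60 ± 0.50 (paired edgeR adjusted p = 0.0370) for 000010F:2806225-2814159 and 1.45 ± 0.28 (paired edgeR adjusted p = 0.0394) for 000091F:1334754-1342351. For this late change 0 members were called without 72 h pair 1 or without any one of the late pairs. For the change between 72 h and the 5th instar 2 to 5 members were called when a pair was left out. These comparisons called 0.858% of all models between the 5th instar and 72 h, 0.399% as lower, and 0.708% between 72 h and the late pupa, 0.459% as higher. Without the pairs edgeR called 0 members in either comparison, with 3 and 2 at an unadjusted p below 0.05, against 2.73% and 2.19% of all models. It called 0.00753% and 0% of all models after adjustment.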

How the results depend on the processing

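The edgeR count of members that differed between the wings in the 5th instar was 0, and 2 with the replicate block, with TMM or DESeq2 size factors. It was 1 by DESeq2's Wald test and 1 with the block and larval pair 1 left out. At 72 h the count was 0, and 5 with the block under either scaling. It was 1, 4 and 6 with the block and pair 1, 2 or 3 left out, and 0 to 1 when single libraries were left out. For the change of the wing difference between the 5th instar and 72 h it was 0, and 3 with the block under either scaling. With the block it was 2, 4 and 5 without 72 h pair 1, 2 or 3, and 3, 2 and 2 without larval pair 1, 2 or 3. For the change between 72 h and the late pupa it was 0, and 2 with the block under either scaling, or 0, 4 and 3 without 72 h pair 1, 2 or 3, and 0 without late pair 1, 2 or 3. The wing difference of 000054F:27650-30889 at 72 h turned to 0.23 (log2, edgeR adjusted p = 1.0) without hindwing replicate 1 in the unpaired fit, where it was −0.77 and not called, and ran from −1.56 to 0.23 over single libraries left out. The number of members fell to 65 when counts were divided by the library total, and ran from 100 to 112 when a replicate number was left out of every group. Without members that overlap another model, the share of prepupal forewing counts was 25.8%. When a prepupal forewing library was left out it ran from 27.7% to 30.4%. Counts of members called between 72 h and the 5th instar ran from 30 to 36 in forewings and from 22 to 29 in hindwings when single libraries were left out, and those between the late pupa and 72 h from 32 to 35 and from 29 to 34. Across stages the numbers are shared as numbers only, and a replicate block there gave 38, 27, 38 and 36 calls in place of 40, 31, 37 and 35. Over all alternatives, 144 values that answer a comparison stayed within 1.5 times or within their spread and 24 did not. The cause of these moves was not tested. In this tally members called were counted without regard to direction, so changes in the numbers of higher or lower members alone do not enter it. A count of 0 that stayed at 0 was taken as unchanged. Leaving out a pair, joining the block with DESeq2 size factors, scaling by the library total and leaving out both 72 h libraries numbered 3 were chosen after seeing the data.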
